A study of Mus musculus with 12 samples.

Results

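The genes described here carry glucose into the cell and break it down to pyruvate and lactate. Others control the entry of pyruvate into the citric acid cycle, or sense or answer a shortage of oxygen. The members are a list of 43 symbols with these roles, chosen when earlier results of these data were known. Of these, 40 were measured, among 18194 genes in all. Gpi1 and Eno1 were not listed in the probe annotation used here, and Bnip3l was listed only on probe sets shared with other symbols, so these 3 were not analysed here. Each gene was read from its brightest probe set, by the mean over all arrays, and 24 of the 40 members had several probe sets.

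RNA of mouse granulosa cells, which nourish the oocyte inside the follicle, was measured on 12 Affymetrix arrays, 3 in each of 4 groups. The mice were wild type (WT) littermates or carried Ex6DEL, a germline deletion of exon 6 of Snf2l (Smarca1), the ATPase of an ISWI chromatin remodeller. Per the labels, that deletion was first made by crossing mice with loxP sites around exon 6 (129Sv) to a ubiquitous Gata-1 Cre line (CD-1), and the line was then kept without Cre on 129Sv. Females aged 24 to 26 days were all primed with PMSG (5 IU), a serum gonadotropin of pregnant mares that makes follicles grow. The 0 h groups were collected 48 h later. At that point the 4 h groups were given 5 IU of human chorionic gonadotropin (hCG), a stand-in for luteinizing hormone (LH) that triggers ovulation, and their cells were taken 4 h afterwards. Each array held cells pooled from 5 mice, freed by needle puncture of follicles. The labels do not say that the 3 arrays of a group were separate pools, so p-values measure only the spread between these arrays, which may be technical.

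Granulosa cells lie inside the basement membrane of the follicle, where no vessels reach before ovulation, and they are known for making pyruvate and lactate from glucose that the oocyte then takes up. In cells with enough oxygen, the prolyl hydroxylases of the Egln genes mark the alpha subunits of hypoxia-inducible factor (HIF) for destruction through Vhl. When oxygen is short, or when hormone signals raise its synthesis, HIF alpha pairs with Arnt and binds promoters of glycolytic and other target genes at sites with the core ACGTG or GCGTG. LH and hCG are known inducers of HIF in granulosa cells.

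These cores were searched on both strands in the RefSeq promoter windows (GRCm38.p6) that run from 250 bases before to 50 bases after a gene's start. Windows were found for 37 of the 40 measured members, Slc2a3, Ndrg1 and Epas1 being without one. ACGTG stood in a window of 26 of the 37 members (70.3%), and in 21.8% of all 27025 genes with a window. GCGTG also stood in 26 of the 37 (70.3%), against 35.2% of all genes. Member windows held more CG dinucleotides, with a median of 20 against 7, and among windows with at least 10 CG the shares for ACGTG were 64.1% of 39 member windows and 28.0% of all, and for GCGTG 66.7% and 56.6%. The palindrome CACGTG holds ACGTG on both strands and is also the E-box bound by other factors. Shown next are stretches of 65 bases around the match, 5′ to 3′ on the gene's strand, for the members whose arrays of 0 h and 4 h lay apart in the same direction in both genotypes and that carry ACGTG before the start. Capitals mark ACGTG or, where the C before it completes the palindrome, CACGTG. Pfkm had 4 windows, of which 2 held ACGTG, and the first by position with a match before its start is shown. Slc2a1, Pdk3, Bnip3 and P4ha2 had 1 window each.
Slc2a1 (chr4:119108679-119108743, + strand, match 36 bases before the start): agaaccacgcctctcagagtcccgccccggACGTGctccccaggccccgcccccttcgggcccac
Pfkm (chr15:98092423-98092487, + strand, match 136 bases before the start): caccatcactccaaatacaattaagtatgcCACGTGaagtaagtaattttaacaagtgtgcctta
Pdk3 (chrX:93832169-93832233, - strand, match 53 bases before the start): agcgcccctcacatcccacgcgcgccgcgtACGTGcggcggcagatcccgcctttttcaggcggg
Bnip3 (chr7:138909580-138909644, - strand, match 108 bases before the start): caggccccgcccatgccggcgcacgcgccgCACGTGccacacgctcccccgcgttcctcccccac
P4ha2 (chr11:54100816-54100880, + strand, match 78 bases before the start): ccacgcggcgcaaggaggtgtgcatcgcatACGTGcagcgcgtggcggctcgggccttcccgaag
The core stood before the start of a member that was higher after hCG (Slc2a1) and of members that were lower (the other 4). A match describes the letters of the window and is not a measured binding site.

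Values are deposited log2 intensities, on which a difference of 1 is a doubling. The lowest value of the table was 2.21, a floor at which nothing is told from background, and array medians lay between 2.75 and 2.91. Granulosa markers Fshr, Inha, Inhba, Foxl2, Amhr2 and Nr5a2 were above the floor, and Amh was at it on every array. The mean of 13 LH-induced genes checked the collection times. It lay between 11.73 and 13.38 on the 4 h arrays and between 4.92 and 6.32 on 5 of the 6 arrays of 0 h. On the array labelled Ex6DEL 0 h replicate 3 it was 10.56, near the 4 h arrays, but single genes differed. There Ereg had 14.67, within its 4 h range of 13.15 to 15.24. Snap25 had 2.41 there, with 2.38 to 2.68 on the other 0 h arrays. Fshr had 12.10 there, with 7.69 to 10.60 on the 4 h arrays. So this array was only partly at the 4 h level. WT 0 h replicate 1, at 6.32, was the highest of the other 0 h arrays. It was also the dimmest array for the members, with a mean of 8.33 over the 40 genes against 8.73 to 9.21 elsewhere, and it was the lowest of its group for 32 of the 40. Markers of theca and stroma (6 genes) had a mean of 11.82 in Ex6DEL 0 h replicate 1, against 7.06 to 8.91 on the other 11 arrays, and the 7 oocyte markers had their highest mean, 10.13, on the same array. Calls of members, Pck2, Fbp1, Idh3b and Fshr that were lost without 1 of these 3 arrays are given with and without it.

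**Figure D1:**
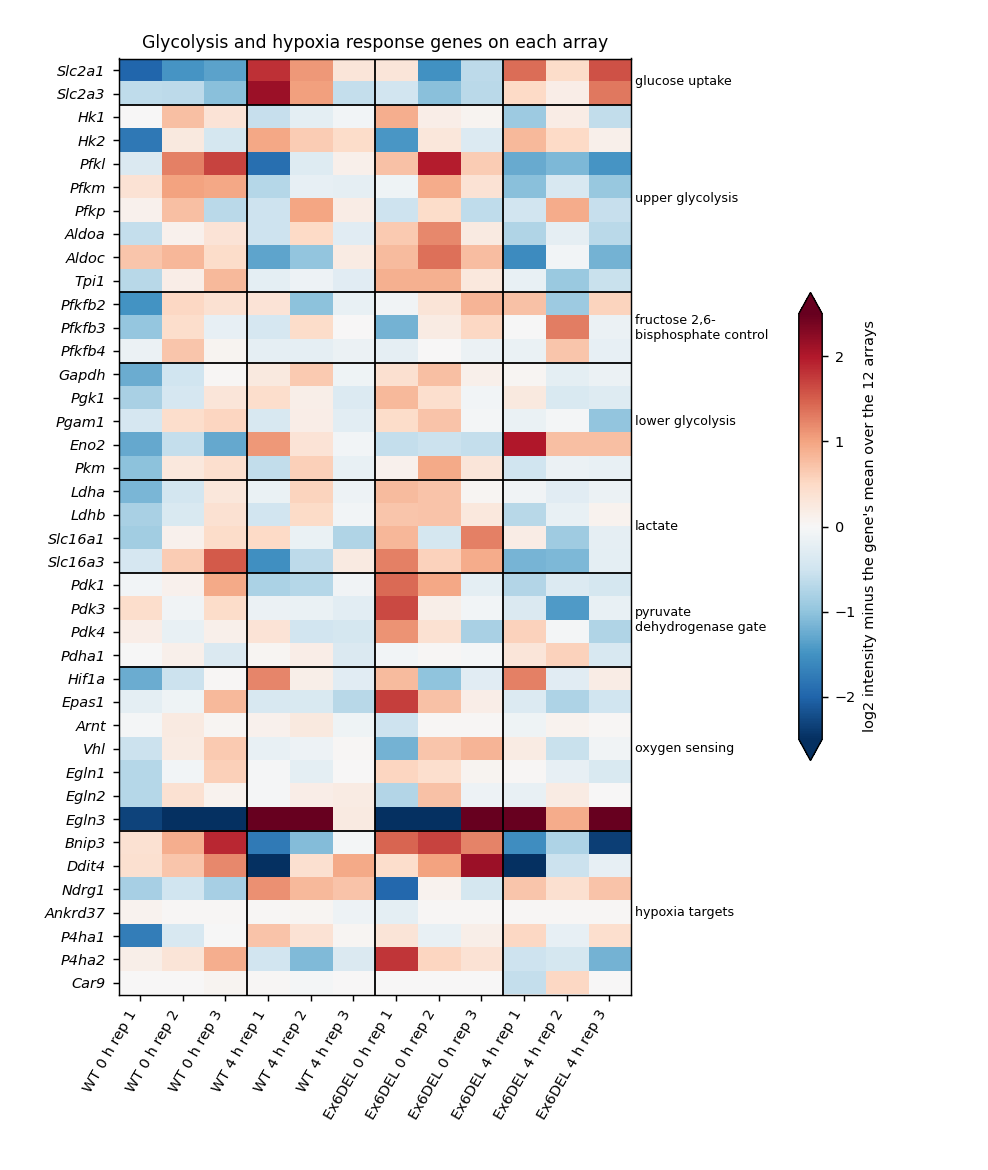
Log2 intensity of each of the 40 members (rows, grouped by role) on each of the 12 arrays (columns), as the deviation from the gene's own mean over all arrays, with the colour scale ending at 2.5 in both directions. Slc2a1, Eno2, Egln3 and Ndrg1 are mostly red at 4 h and Bnip3, Pfkl, Pfkm and Aldoc mostly blue, while WT 0 h replicate 1 is blue for most glycolytic enzymes.

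After hCG, the glycolysis and hypoxia genes did not move as one. In both genotypes the glucose transporters Slc2a1 and Slc2a3, the enolase Eno2 and the stress gene Ndrg1 had higher values on every 4 h array than on any 0 h array. In both, the phosphofructokinase Pfkm, the aldolase Aldoc, the kinases Pdk1 and Pdk3, the HIF alpha subunit Epas1, the mitophagy gene Bnip3 and the collagen prolyl hydroxylase P4ha2 were lower on every 4 h array. Only the decrease of Bnip3 in Ex6DEL passed the test over all genes (limma, adjusted p under 0.05), and that call was lost with the replicate number as a block, which these groups allow (adjusted p = 0.0660). In WT, 0 of the 40 members were called, where 0.929% of all genes were (0.61% higher, 0.319% lower), and 13 had an unadjusted p under 0.05 (8 higher, 5 lower), against 14.4% of all genes. In Ex6DEL, 1 of 40 was called, where 2.17% of all genes were (0.566% higher, 1.6% lower), and 16 had an unadjusted p under 0.05 (3 higher, 13 lower), against 18.9%. So 1 member of 40 is about the share called among all genes. Most members (37) lay above the median level of all genes. Of the 9097 genes above that level, 2136 in WT and 2973 in Ex6DEL had an unadjusted p under 0.05.

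The groups lay apart in WT for 7 members higher and 9 lower, where 7.52% and 11.4% of all genes did. In Ex6DEL they lay apart for 4 members higher and 18 lower, where 5.13% and 14.5% of all genes did. Of the members, 37 lay above the median level of all genes, and among the genes above that level, which have fewer values at the floor, the shares were 13.5% higher and 18.1% lower in WT and 8.16% higher and 26.1% lower in Ex6DEL. Under quantile normalization the WT counts were 7 higher and 12 lower, against 7.17% and 15.1% of all genes, and the Ex6DEL counts 5 higher and 9 lower, against 7.29% and 12.7%. Apart in the same direction in both genotypes were 4 members higher (10% of members, 3.28% of all genes) and 7 lower (17.5% and 6.45%), and 0 were apart in opposite directions. These joint shares were not taken among the genes above the median level. The median change of the members was -0.03 in WT, where that of all genes was 0.00, and -0.53 in Ex6DEL, where that of all genes was -0.01 and that of genes above the median level was -0.34. Under quantile normalization the member medians were -0.23 and -0.18.

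**Figure D2:**
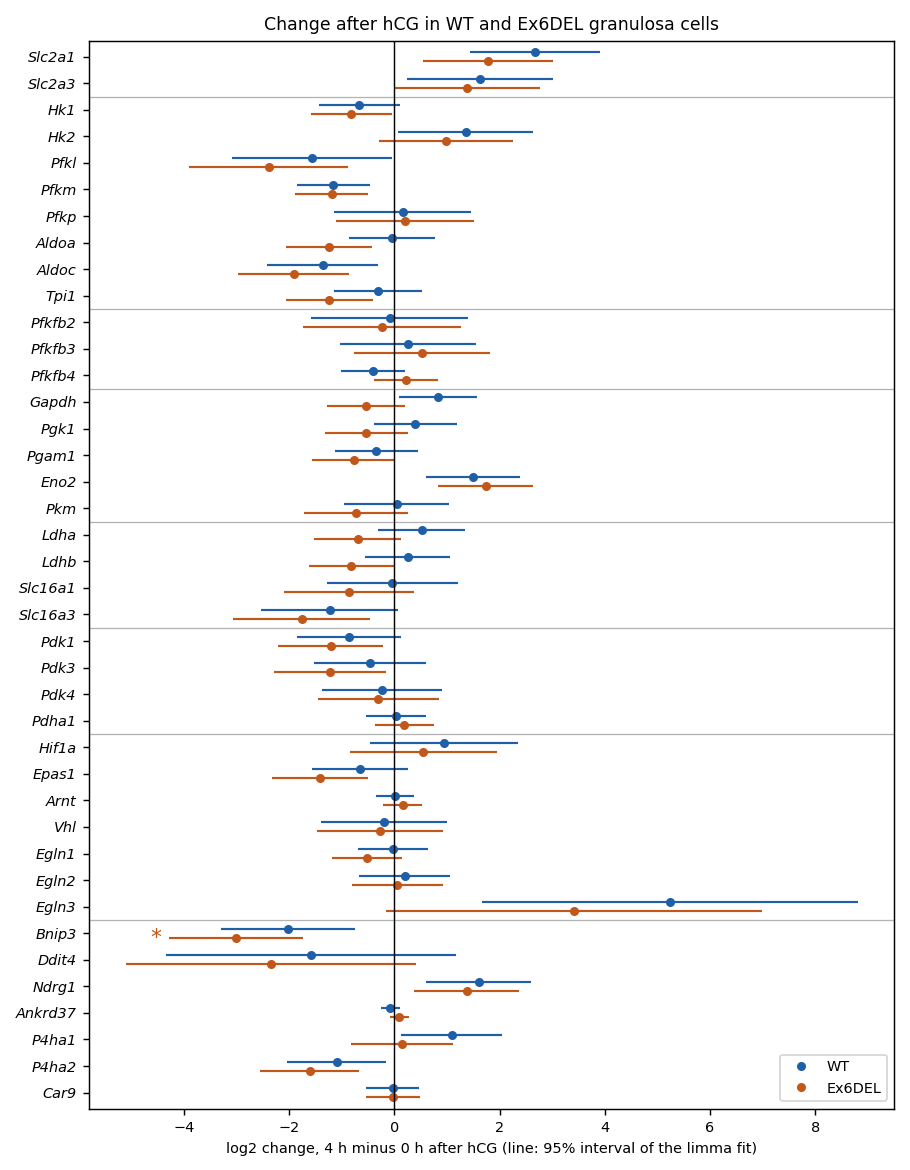
Log2 change from 0 h to 4 h after hCG (horizontal axis) for each member in WT (blue) and Ex6DEL (orange), with the 95% interval of the limma fit. The star marks the decrease of Bnip3 in Ex6DEL, at -3.02, the 1 change called over all genes; Slc2a1 in WT lies at 2.67 and Egln3 has the widest intervals.

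Glucose uptake was the role in which both members were higher after hCG. Slc2a1 encodes GLUT1, the basal glucose transporter of most cells and a classical HIF target. It had 8.66, 9.16 and 9.31 on the WT arrays of 0 h and 12.47, 11.72 and 10.94 on those of 4 h. In Ex6DEL it had 10.94, 9.12 and 9.98 at 0 h and 12.03, 11.09 and 12.24 at 4 h. Every 4 h array stood above every 0 h array of its genotype, by the least between Ex6DEL 0 h replicate 1 and Ex6DEL 4 h replicate 2. The WT change was 2.67 (SE 0.54, n = 3 arrays per group), which is 6.35-fold and the smallest p of the members in WT, with a limma adjusted p of 0.0633 that misses the threshold (0.0418 under quantile normalization, which passes). All 3 Slc2a1 probe sets were higher at 4 h in both genotypes, by 2.67 to 3.31 in WT and 1.77 to 2.25 in Ex6DEL. Tested by itself over 34958 probe sets, of which 216 were called in WT, another Slc2a1 probe set was called there (3.31, limma adjusted p = 0.0339). Slc2a3, the high-affinity transporter GLUT3, was near background at 0 h, with 3.92, 3.90 and 3.52 in WT and 4.09, 3.52 and 3.90 in Ex6DEL. At 4 h it had 6.70, 5.58 and 3.96 in WT and 5.06, 4.72 and 5.88 in Ex6DEL, so WT 4 h replicate 3 lay only just above the 0 h arrays.

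Upper glycolysis, from glucose to the triose phosphates, had 8 measured members, and 0 of them were called in either genotype. In WT 1 lay apart higher and 3 lower, where 7.52% and 11.4% of all genes did (18.1% lower among genes above the median level). In Ex6DEL 0 lay apart higher and 5 lower, where 5.13% and 14.5% of all genes did (26.1% lower among genes above the median level). Pfkl and Pfkm are the liver and muscle forms of phosphofructokinase, the committed and most regulated step. Pfkm had 8.74, 9.39 and 9.35 in WT at 0 h and 7.66, 8.18 and 8.15 at 4 h. Ex6DEL arrays had 8.28, 9.31 and 8.73 and then 7.33, 7.98 and 7.44. The groups did not overlap in either genotype, and the changes were alike: -1.16 in WT (SE 0.31, limma adjusted p = 0.130) and -1.19 in Ex6DEL (SE 0.31, limma adjusted p = 0.0830). Replicate 1 was the lowest Pfkm array in all 4 groups. With the replicate number as a block the decrease passed in WT (limma adjusted p = 0.0337) and in Ex6DEL (limma adjusted p = 0.0489). Pfkl had 9.11, 10.72 and 11.16 in WT at 0 h and 7.57, 9.13 and 9.60 at 4 h, groups that overlap. The Ex6DEL values were 10.20, 11.42 and 10.10 and then 8.21, 8.34 and 7.99, with a change of -2.39 (SE 0.67, limma adjusted p = 0.101). The third form, the platelet type Pfkp, overlapped in both genotypes, at 8.49 to 9.92 in WT 0 h and 8.65 to 10.15 in WT 4 h, and at 8.52 to 9.61 and 8.58 to 10.08 in Ex6DEL.

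Aldoc, the brain-type aldolase, had 7.64, 7.79 and 7.42 in WT at 0 h and 5.64, 5.96 and 7.15 at 4 h. In Ex6DEL it had 7.73, 8.32 and 7.72 and then 5.38, 6.88 and 5.77. The Ex6DEL change was -1.92 (SE 0.46, limma adjusted p = 0.0707). Its muscle-type counterpart Aldoa overlapped in WT, at 12.10 to 13.04 and 12.19 to 13.18, and lay apart in Ex6DEL, at 12.92 to 13.89 at 0 h and 11.94 to 12.48 at 4 h. Triosephosphate isomerase, Tpi1, followed the same order, with 12.69 to 13.32 and then 11.49 to 12.24 in Ex6DEL and overlapping groups in WT. Hexokinase, which traps glucose in the cell, was split between its forms. Hk1 had 8.15, 8.90 and 8.49 in WT at 0 h and 7.57, 7.90 and 8.07 at 4 h, while Hk2, the inducible form, had 5.70, 7.73 and 7.05 and then 8.46, 8.13 and 7.94. In Ex6DEL both overlapped, Hk1 at 8.21 to 9.05 and 7.24 to 8.33, Hk2 at 6.04 to 7.78 and 7.62 to 8.30. The bifunctional enzymes Pfkfb2, Pfkfb3 and Pfkfb4, which set the level of the activator of phosphofructokinase, overlapped in both genotypes except Pfkfb4 in WT, with 6.16, 6.99 and 6.36 at 0 h and 6.08, 6.07 and 6.15 at 4 h. The WT 4 h values 6.08 and 6.15 recurred unchanged on Ex6DEL 0 h replicates 1 and 3. The gap of Pfkfb4 in WT is therefore not well measured.

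**Figure D3:**
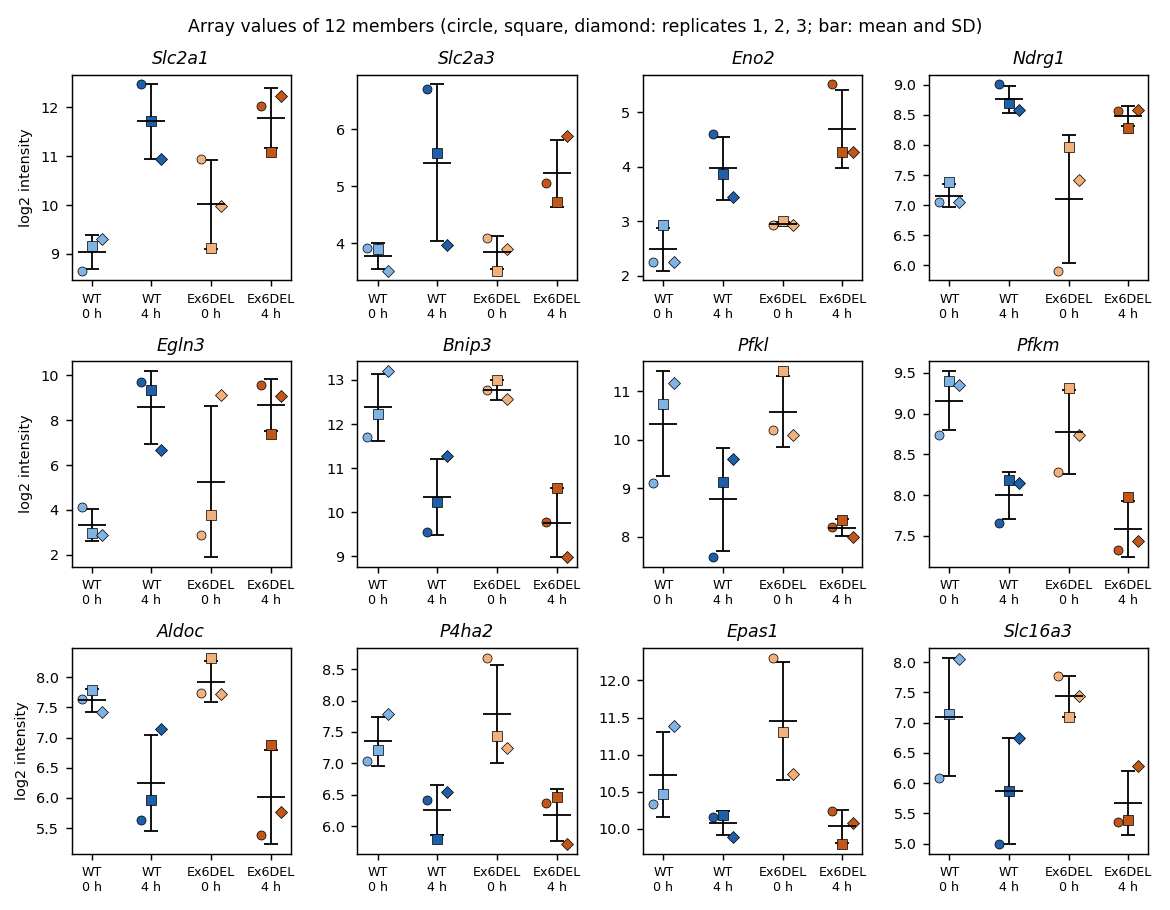
Log2 intensity of 12 members on each array (vertical axes, scaled to each gene) by genotype and time, with replicates 1, 2 and 3 as circle, square and diamond and the bar as mean and SD of 3 arrays. Slc2a1, Slc2a3, Eno2 and Ndrg1 are higher at 4 h and Bnip3, Pfkm, Aldoc, P4ha2 and Epas1 lower in both genotypes without overlap, while the diamond of Egln3 in Ex6DEL 0 h, at 9.13, sits at the 4 h level.

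In lower glycolysis, from triose phosphate to pyruvate, Eno2 was the 1 member apart in the same direction in both genotypes, and it was not called. Eno2 is the neuronal enolase, and it was close to the floor before hCG, with 2.26, 2.94 and 2.26 in WT and 2.94, 3.0 and 2.94 in Ex6DEL. At 4 h it had 4.60, 3.87 and 3.45 in WT and 5.53, 4.28 and 4.28 in Ex6DEL. The identical value 2.94 stood on WT 0 h replicate 2 and on Ex6DEL 0 h replicates 1 and 3. The spread of Eno2 at 0 h is therefore not well measured. Every 4 h array lay above every 0 h array, and the changes were 1.49 in WT (SE 0.40, limma adjusted p = 0.131) and 1.74 in Ex6DEL (SE 0.40, limma adjusted p = 0.0609, and 0.0429 under quantile normalization). The abundant enzymes Gapdh, Pgk1, Pgam1 and Pkm gave another picture. Gapdh, read here by the array's own control probe sets, had 13.77, 14.51 and 15.05 in WT at 0 h and 15.25, 15.66 and 14.90 at 4 h. Ex6DEL arrays had 15.42, 15.76 and 15.15 and then 15.06, 14.77 and 14.87, so the 4 h arrays were the lower ones there. Pgam1, the phosphoglycerate mutase, and Pkm, the pyruvate kinase, also lay apart lower in Ex6DEL, Pgam1 at 11.54 to 12.30 and then 10.60 to 11.53, Pkm at 12.48 to 13.32 and then 11.87 to 12.22. In WT these 4 enzymes overlapped. The 3′ minus 5′ difference of Gapdh, a measure of RNA integrity, was 4.02 to 4.62 over the 12 arrays.

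Lactate dehydrogenase followed these abundant enzymes. Its subunits Ldha and Ldhb overlapped in WT and lay apart lower in Ex6DEL. Ldha had 12.99, 13.68 and 14.42 and then 13.97, 14.69 and 14.00 in WT, and 14.93, 14.84 and 14.19 and then 14.04, 13.85 and 13.99 in Ex6DEL. Ldhb had 13.11 to 13.56 in Ex6DEL at 0 h and 12.16 to 12.94 at 4 h. The lactate exporter Slc16a3 (MCT4), a HIF target in other cells, had 6.09, 7.14 and 8.05 in WT at 0 h and 4.99, 5.87 and 6.74 at 4 h. The Ex6DEL values were 7.78, 7.09 and 7.44 and then 5.36, 5.39 and 6.28. Its 4 h values were thus below its 0 h values in Ex6DEL without overlap and with overlap in WT. The other transporter, Slc16a1 (MCT1), overlapped in both genotypes. Under quantile normalization the WT changes of Gapdh, Pgk1, Pkm, Ldha and Ldhb all came to 0 or below, so no direction is given for them in WT. Over all members, those apart lower in Ex6DEL went from 18 to 9 under that scaling. Which of these enzymes stayed apart in Ex6DEL is not given here.

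The pyruvate dehydrogenase kinases switch off the entry of pyruvate into the citric acid cycle, and Pdk1 is a HIF target in many cells. Pdk1 had 5.74, 5.90 and 6.75 in WT at 0 h and 5.01, 5.09 and 5.71 at 4 h, and 7.20, 6.76 and 5.55 and then 5.06, 5.45 and 5.36 in Ex6DEL. The groups lay apart, by a small gap in both genotypes. Its probe sets differed in size but not in direction: another of them changed by -2.66 in Ex6DEL, a call among the 300 of 34958 probe sets called there (limma adjusted p = 0.0482), and had -2.55 in WT (limma adjusted p = 0.0644). Pdk3 had 6.96, 6.43 and 6.96 in WT at 0 h and 6.36, 6.35 and 6.26 at 4 h. In Ex6DEL Pdk3 had 8.16, 6.65 and 6.44 and then 6.16, 5.09 and 6.32, with the highest value on Ex6DEL 0 h replicate 1, the array rich in theca and stroma markers. The Ex6DEL change of Pdk3 was -0.69 without that array (limma adjusted p = 0.425). Pdk4 overlapped in both genotypes, as did Pdha1, the enzyme subunit that these kinases phosphorylate.

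**Figure D4:**
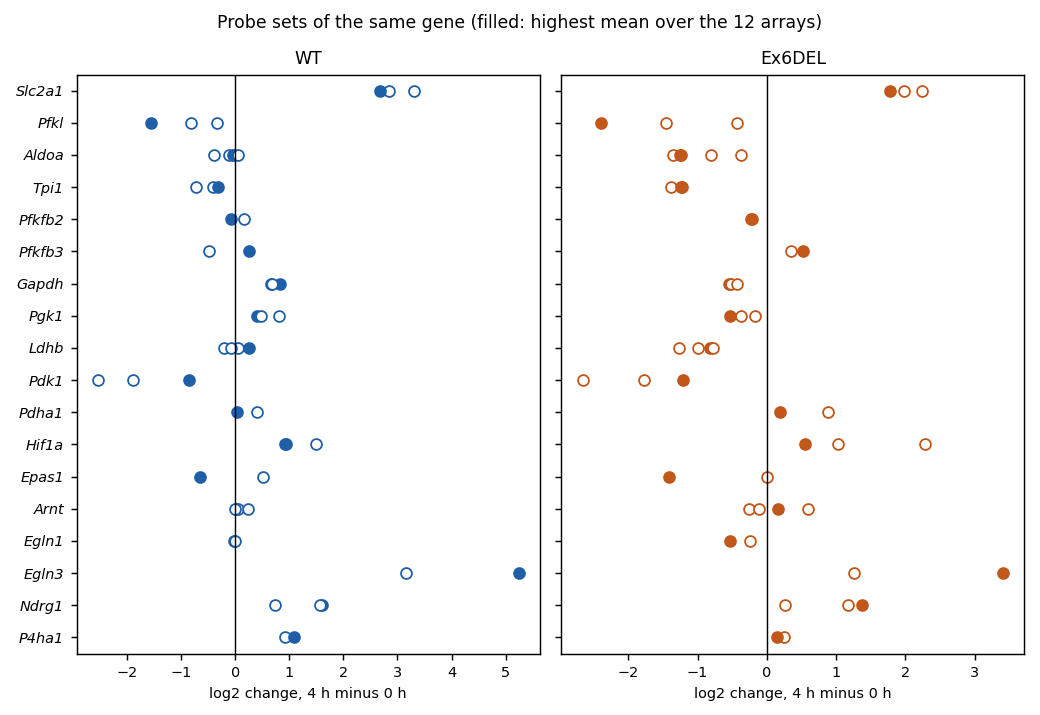
Log2 change from 0 h to 4 h (horizontal axis) of single probe sets in WT (left) and Ex6DEL (right) for the 18 members with several probe sets above background, the filled circle being the one used for the gene. All 3 probe sets of Slc2a1 lie right of 0 and all 3 of Pdk1 left of 0 in both genotypes, with Pdk1 spread from -2.66 to -1.21 in Ex6DEL.

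Among the oxygen sensors, Egln3 (PHD3), the prolyl hydroxylase that HIF itself induces, showed the widest range. It had 4.15, 2.97 and 2.86 in WT at 0 h and 9.68, 9.33 and 6.69 at 4 h, a change of 5.24 (SE 1.57, limma adjusted p = 0.176). Most of its 0 h values lie near the array medians of 2.75 to 2.91, close to background, so the size of its changes is not well measured. In Ex6DEL it had 2.89, 3.76 and 9.13 at 0 h and 9.56, 7.39 and 9.08 at 4 h. The value of 9.13 came from Ex6DEL 0 h replicate 3, the array with raised LH-induced genes, and it alone made the Ex6DEL groups overlap. Without that array and WT 0 h replicate 1, Egln3 rose by 5.35 in Ex6DEL (limma adjusted p = 0.0353) and had 5.65 in WT (limma adjusted p = 0.0556). Leaving out the array with 9.13 widens the Ex6DEL change by itself, so that call is not independent support. Its paralogs Egln1 and Egln2 overlapped in WT, and Egln1 lay apart lower in Ex6DEL, at 9.53 to 9.99 and then 9.09 to 9.49. Hif1a, the alpha subunit itself, had 11.26, 11.97 and 12.54 in WT at 0 h and 13.72, 12.65 and 12.23 at 4 h, and 13.30, 11.51 and 12.21 and then 13.77, 12.23 and 12.68 in Ex6DEL. The groups overlapped, and the other Hif1a probe sets above background had 0.93 and 1.48 in WT and 1.03 and 2.29 in Ex6DEL, none called. Epas1, the other alpha subunit (HIF2 alpha), had 10.34, 10.47 and 11.39 in WT at 0 h and 10.17, 10.19 and 9.89 at 4 h. In Ex6DEL Epas1 had 12.31, 11.30 and 10.74 and then 10.24, 9.79 and 10.08, lower on every 4 h array in both genotypes. Arnt and Vhl, the partner and the ubiquitin ligase subunit, overlapped in both genotypes.

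**Figure D5:**
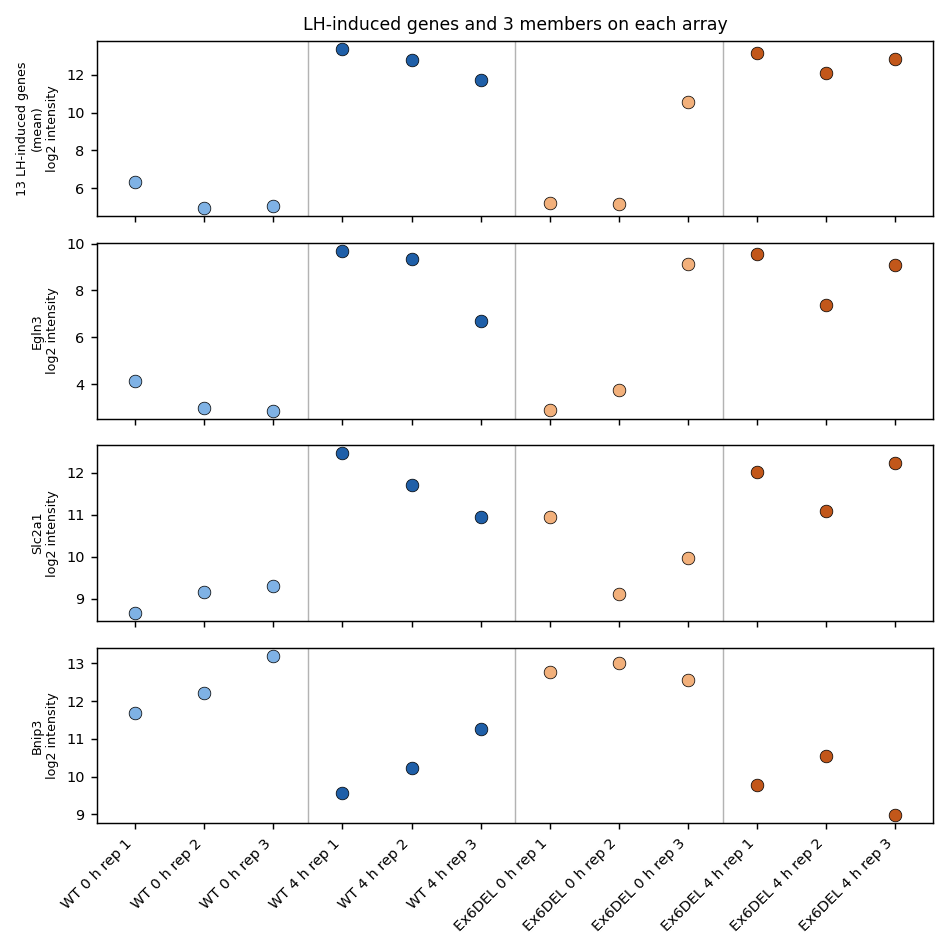
Log2 intensity on each of the 12 arrays (horizontal axis) of 13 LH-induced genes (mean), Egln3, Slc2a1 and Bnip3. Ex6DEL 0 h replicate 3 has 10.56 for the LH-induced genes and 9.13 for Egln3, both near the 4 h arrays, but 12.56 for Bnip3, among the other 0 h arrays.

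The hypoxia targets went both ways. Bnip3, which marks mitochondria for removal and is among the most HIF-dependent genes of many cells, fell in Ex6DEL. It had 12.77, 13.01 and 12.56 at 0 h and 9.77, 10.55 and 8.97 at 4 h. The groups were far apart, and the change was -3.02 (interval -4.29 to -1.75, SE 0.56, n = 3 arrays per group, limma adjusted p = 0.0384), an 8.09-fold decrease. With the replicate number as a block, the adjusted p was 0.0660 and the call was lost, as it was without either of Ex6DEL 0 h replicates 1 and 2 (adjusted p 0.104 and 0.122), without any single Ex6DEL 4 h array (0.0517 to 0.124) or without WT 0 h replicate 2 or WT 4 h replicate 2 (0.0761 and 0.0688). The change itself stayed between -3.41 and -2.62 in these fits. In WT, Bnip3 had 11.70, 12.22 and 13.21 and then 9.56, 10.24 and 11.27, also without overlap, with a change of -2.02 (SE 0.56, limma adjusted p = 0.145). Ex6DEL 0 h replicate 3, at 12.56, lay with the other 0 h arrays for Bnip3.

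Ndrg1, a stress- and hypoxia-induced gene, had 7.05, 7.38 and 7.05 in WT at 0 h and 9.01, 8.69 and 8.58 at 4 h, a change of 1.60 (SE 0.44, limma adjusted p = 0.143). Ex6DEL arrays had 5.91, 7.96 and 7.43 and then 8.57, 8.28 and 8.58, again without overlap. Another of its probe sets was called in both genotypes, at 1.56 in WT (limma adjusted p = 0.0234) and 1.17 in Ex6DEL (limma adjusted p = 0.0467), and that set is of the kind (suffix x) whose probes can also match other transcripts. P4ha2, a subunit of the enzyme that hydroxylates collagen, had 7.03, 7.22 and 7.79 in WT at 0 h and 6.41, 5.80 and 6.54 at 4 h. The Ex6DEL values were 8.69, 7.44 and 7.24 and then 6.37, 6.46 and 5.71, a change of -1.61 (SE 0.41, limma adjusted p = 0.0821). Its sister subunit P4ha1 went the other way in WT, with 8.47, 9.81 and 10.21 and then 10.92, 10.58 and 10.26, and overlapped in Ex6DEL. Ddit4 (REDD1), an inhibitor of mTORC1 signalling, was scattered at 4 h, with 7.28, 11.48 and 12.02 in WT at 4 h and 8.37, 10.53 and 10.87 in Ex6DEL against 11.48 to 12.27 and 11.51 to 13.21 at 0 h, apart in Ex6DEL and overlapping in WT. Ankrd37 stayed near the floor, at 2.26 to 2.61 on all 12 arrays. Car9, the membrane carbonic anhydrase often used as a hypoxia marker, ranged from 6.28 to 7.41 and overlapped in both genotypes. The identical value, 6.88, stood on all 3 Ex6DEL 0 h arrays and recurred on arrays of each other group. Car9 can therefore not be read as expressed and unchanged.

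Marker lists moved with the Ex6DEL comparison too. All 6 theca and stroma markers had a negative change there (median -2.01), with list means of 7.90 to 11.82 at 0 h and 7.06 to 8.33 at 4 h. Without Ex6DEL 0 h replicate 1 the median was -0.92, and 5 of 6 were negative. In WT the median was 0.01, with means of 7.65 to 8.91 and 7.93 to 8.56. Of the 7 granulosa markers, 6 had a negative change in Ex6DEL (median -0.69) and Amh stayed at the floor. Fshr, the receptor of follicle-stimulating hormone, fell there by 4.34 on the log2 scale (limma adjusted p = 0.0285, and 0.0707 without Ex6DEL 0 h replicate 1). In WT, 3 granulosa markers were positive and 3 negative. Fshr was among the negative ones, at -2.44 (limma adjusted p = 0.130, not called). Its WT groups did not overlap, at 11.08 to 12.58 and then 8.63 to 10.60. Of the 7 oocyte markers, 6 had a negative change in Ex6DEL (median -0.42) and 7 a positive one in WT (median 0.42). Of the endothelial list Pecam1 was at the floor, and the list had means of 3.05 to 4.20 on all arrays. Means of the 6 leukocyte genes lay between 5.16 and 6.60, of the 2 red blood cell genes between 5.10 and 6.84 with Hba-a1 at the floor. In bulk RNA, fewer cells of a type and less RNA per cell cannot be told apart, and the part of these markers in the members' values was not tested. Without Ex6DEL 0 h replicate 3 and WT 0 h replicate 1, 5 members were called in Ex6DEL, where 7.11% of all genes were: Bnip3 (-3.13, limma adjusted p = 0.0404), Tpi1 (-1.45, 0.0275), Pdk1 (-1.69, 0.0356) and Epas1 (-1.77, 0.0423) lower, and Egln3 (5.35, 0.0353) higher. In WT 0 were called in that fit, where 1.76% of all genes were. The members then lay apart in WT for 7 higher and 15 lower, against 8.6% and 21.3% of all genes, and in Ex6DEL for 5 higher and 19 lower, against 8.25% and 21.9%. Both arrays were singled out from values of these data, for WT 0 h replicate 1 the members' own among them. The calls and counts of that fit are therefore not independent support. Without Ex6DEL 0 h replicate 1, 0 members were called in Ex6DEL, where 0.291% of all genes were.

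The comparison of genotypes asks whether the loss of exon 6 of Snf2l goes with another level of these genes. No member was called by limma at either time or in the interaction, the difference between the responses. At 0 h 0.033% of all genes were called, at 4 h 0%, and in the interaction 0.011%. At an unadjusted p under 0.05 there were 3 members at 0 h (Gapdh, Ldha and Ldhb, all higher in Ex6DEL), against 5.36% of all genes, 0 at 4 h, against 1.62%, and 3 in the interaction (Gapdh, Ldha and Aldoa), against 3.2%. At 0 h, 33 of the 40 members had a positive difference, Ex6DEL minus WT, with a median of 0.36, where the median of all genes was 0.01 and that of genes above the median level was 0.21. Under quantile normalization 18 were positive and 22 negative, and 15 members changed sign. Gapdh was the 1 member whose groups lay apart at 0 h, where 3.96% of all genes lay apart higher and 2.45% lower. Its difference was 1.0 (SE 0.32, limma adjusted p = 0.874), and it was -0.11 after quantile normalization. Ldha had 0.96 (SE 0.36), Ldhb 0.83 (SE 0.36), Aldoa 0.74 (SE 0.36), Pgk1 0.69 (SE 0.35) and P4ha1 0.81 (SE 0.42), all with a limma adjusted p of 0.874. The first 4 of these turned negative under quantile normalization. Without WT 0 h replicate 1 the median difference of the members was 0.10. Marker lists differed between the genotypes at 0 h in the same direction. All 7 oocyte markers were positive (median 1.62), 5 of them apart, 6 with an unadjusted p under 0.05 and 0 called. All 6 theca and stroma markers were positive (median 1.14), as were 6 of 7 granulosa markers (median 0.72). Without Ex6DEL 0 h replicate 1 these medians were 0.87, -0.15 and 0.27, and that of the members was 0.41. The part of these markers in the members' differences was not tested.

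At 4 h the genotypes were closer for most members, with a median of -0.16 over the 40, 11 positive, where all genes had 0.00 and genes above the median level -0.12. Ndrg1 was the 1 member apart, lower in Ex6DEL (8.57, 8.28 and 8.58 against 9.01, 8.69 and 8.58 in WT), where 2.02% of all genes lay apart lower and 0.962% higher. The nearest arrays were alike to 2 decimals, and the difference was -0.29 (interval -1.29 to 0.71). Slc2a1 had an Ex6DEL minus WT interval at 4 h of -1.16 to 1.31 and Bnip3 one of -1.86 to 0.68, so differences of about a doubling lie within both. The smallest p at 4 h belonged to Eno2 (0.72, SE 0.40), Pfkm (-0.41, SE 0.31), Aldoa (-0.45, SE 0.36), Pfkfb4 (0.31, SE 0.27), Gapdh (-0.37, SE 0.32) and Bnip3 (-0.59, SE 0.56), each with a limma adjusted p of 1. In the interaction, Gapdh had -1.37 (SE 0.46), Ldha -1.21 (SE 0.51), Aldoa -1.19 (SE 0.51), Ldhb -1.07 (SE 0.50), Pgk1 -0.93 (SE 0.49) and Tpi1 -0.93 (SE 0.52), all with a limma adjusted p of 0.871. Under quantile normalization Ldha, Pgk1 and Tpi1 turned positive there, at 0.088, 0.51 and 0.12.

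Neighbouring pathways were read from lists taken from textbook membership. In gluconeogenesis and glycogen metabolism, 0 of 14 genes were called in WT, where 0.929% of all genes were. In Ex6DEL, where 2.17% of all genes were called, 2 of 14 were called, both lower. These were Pck2, the mitochondrial phosphoenolpyruvate carboxykinase (-2.04, SE 0.37, limma adjusted p = 0.0379), and Fbp1, the fructose bisphosphatase that opposes phosphofructokinase (-1.02, SE 0.21, limma adjusted p = 0.0483). In WT, Fbp1 had -1.03 (limma adjusted p = 0.0631). Without Ex6DEL 0 h replicate 1, Pck2 had -1.73 and Fbp1 -1.04 in Ex6DEL, and neither was called (limma adjusted p = 0.0943 and 0.127). Without WT 0 h replicate 1, Fbp1 was not called either (limma adjusted p = 0.0607). Of 15 citric acid cycle genes, 0 were called in WT and 1 in Ex6DEL, Idh3b, a subunit of isocitrate dehydrogenase (-1.08, SE 0.20, limma adjusted p = 0.0384, and 0.116 without Ex6DEL 0 h replicate 1). All 15 had a negative change in Ex6DEL, with a median of -0.95 (-0.85 and 14 of 15 without that array), and 11 of 15 in WT, with a median of -0.30. Of the 9097 genes above the median level, 6100 were negative in Ex6DEL (median -0.34) and 4918 in WT (median -0.07). Under quantile normalization the Ex6DEL median of the genes above that level was -0.15. Of 8 genes of the pyruvate dehydrogenase complex and the pyruvate carriers 0 were called. Pdp1, the phosphatase that reverses the Pdk kinases, had 2.50 in WT (SE 0.48, limma adjusted p = 0.0561) and 2.30 in Ex6DEL (SE 0.48, limma adjusted p = 0.0502). None of the 6 pentose phosphate genes was called, with medians of -0.16 and -1.12, and none of 14 other glycolytic isoforms. Of 20 further hypoxia targets and regulators 0 were called, with 14 positive in WT (median 0.41) and 15 in Ex6DEL (median 0.14). Bhlhe40, a repressor that HIF induces, had 2.33 in WT and 1.99 in Ex6DEL, and Vegfa, the vascular growth factor, 1.61 in Ex6DEL. For comparison, 5 of the 13 LH-induced genes were called in WT and 4 in Ex6DEL, all higher, among them Snap25 at 6.15 and 6.60.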

How the data were processed

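The authors deposited log2 intensities, 1 value for each probe set on each array. GCRMA (background correction, normalization between arrays and summary of probes) is named in the submitters' processing notes without a version. A platform annotation paired 34958 of 45101 probe sets with 1 symbol; 932 had several and 9211 were not listed. For each gene the brightest probe set, by its mean over 12 arrays, was kept, which gave 18194 genes. limma 3.58.1 in R 4.3.3 (lmFit, eBayes, two-sided, 4 groups of 3 arrays, no covariates, 8 residual degrees of freedom) gave each contrast, with Benjamini-Hochberg adjustment over all genes. "Apart" means that the arrays of both groups do not overlap. The prior degrees of freedom were 0.626, so each gene's error rests mostly on its own arrays, and their number limits the precision. The fit was tested on simulated data.

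Same-numbered arrays deviated together in all 3 pairs of the Ex6DEL times (correlations 0.140, 0.349 and 0.220). Of all 18 pairs, 11 had a correlation over 0.1, and the range was -0.308 to 0.663. The labels state no pairing and these correlations do not establish one. The replicate block is therefore an alternative fit only. The highest correlation within a group was 0.991, and no arrays were identical.

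Members, lists, tests and alternatives were chosen with earlier results of these data known. All 40 members are named, most with array values and some only by whether their groups overlapped. A change with SE and adjusted p is given for called members and the 6 with the smallest p in each contrast, and for up to 4 genes of a neighbouring list. Changes of members called only in an alternative, and of single probe sets, were added after their values were seen. Alternatives were other scalings, filters, probe summaries, eBayes settings, array weights, the replicate block and leaving out arrays. No genome was used beyond RefSeq promoter windows.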

Additional observations from a re-analysis of the deposited data

How the results depend on the processing

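Of the members, 0 were called in the genotype comparisons and the interaction under every alternative run. In the hCG comparisons the counts moved. Shares of all genes called stand in parentheses. In WT, against 0 as reported, 1 member was called under quantile normalization (1.6%), after a shift of arrays to one median (1.4%), with the mean of all probe sets (1.12%) and with the replicate block (0.467%, Pfkm, adjusted p = 0.0337), 3 among genes above the median level only (5.77%), and 9 with array weights (12.6%). In Ex6DEL, against 1, there were 3 after the shift to one median (4.33%), 10 among genes above the median level (14.7%), 2 with array weights (2.27%), and 0 in a fit of only the groups compared (0.055%) and at an adjusted p under 0.01 (0.044%). With every probe set tested by itself, added after seeing the data, 0 of the probe sets used for the members were called in Ex6DEL, while 2 other probe sets of members were (Pdk1 and Ndrg1). The Ex6DEL count with the replicate block was 1, Pfkm in place of Bnip3, and under quantile normalization it was 1, Eno2 in place of Bnip3 (adjusted p just over the threshold). With Ex6DEL 0 h replicate 3 and WT 0 h replicate 1 both left out the Ex6DEL count was 5 (7.11%).

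Leaving out 1 array at a time gave 0 to 2 members called in WT (2, Slc2a1 and Ndrg1, without Ex6DEL 0 h replicate 1, where 1.89% of all genes were, and 1, Egln3, without Ex6DEL 0 h replicate 3) and 0 to 5 in Ex6DEL (5 without Ex6DEL 0 h replicate 3, where 6.9% of all genes were). Median changes of the members then ranged from -0.25 to 0.06 in WT, -0.67 to -0.43 in Ex6DEL, 0.10 to 0.65 for the genotypes at 0 h (0.10 without WT 0 h replicate 1, 0.65 without WT 0 h replicate 3), -0.17 to -0.08 at 4 h and -0.68 to -0.17 for the interaction. Under quantile normalization the medians were -0.18 in Ex6DEL, -0.086 for the genotypes at 0 h and -0.011 for the interaction. Without both arrays the median at 0 h was 0.12.

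Under quantile normalization the 0 h genotype differences of Aldoa (-0.11), Gapdh (-0.11), Pgk1 (-0.50), Ldha (-0.10) and Ldhb (-0.032) reversed, as did the interactions of Tpi1 (0.12), Pgk1 (0.51) and Ldha (0.088). The cause was not tested. Signal near the floor limits Eno2, Slc2a3, Egln3 and Ankrd37. Identical values on arrays of different groups limit Car9, Pfkfb4, Eno2, Arnt and Ankrd37.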
